A study of Mus musculus with 3 samples.

Results

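Baseline expression was described in untreated MigA9 cells, a mouse hematopoietic line transformed by the homeobox transcription factor Hoxa9. The values came from the green (Cy3) channel of 3 two-colour Agilent arrays. The members were the genes that the scanner called well above background in that channel on all 3 arrays, 11043 of 27389 genes on the array (40.3%). Another 14669 genes were not above background on any array (53.6%), and 1677 had a probe above it on some array but no probe above it on all 3. Among 18255 genes with an established symbol the corresponding counts were 9569 above on all arrays (52.4%) and 7594 on none (41.6%). These last shares are the background against which every list below is read.

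The study hybridised RNA of MigA9 cells treated with 2.5 µM of the compound DB818 for 6, 12 or 24 h (red channel, Cy5) together with RNA of untreated cells on 1 array per time. The single group described here is the untreated one, with 3 channels, called untreated 1, 2 and 3 after the arrays for 6, 12 and 24 h. All cells carried the transforming Hoxa9 and grew in RPMI-1640 medium with 10% fetal calf serum, 1% GM-CSF-conditioned medium, and antibiotics. The construct that carries Hoxa9, the number of clones and whether the 3 untreated RNAs came from separate cultures are not stated in the labels used here, so the spread between channels may be technical. The treated channel was not used, no second group exists, and the values are described without a test. The number of arrays, 3, limits the precision.

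Hoxa9 is a DNA-binding protein that is active in hematopoietic stem and progenitor cells and is switched off as they mature, and its forced expression keeps myeloid progenitors dividing in culture. It binds DNA together with cofactors of the TALE class, the Pbx and Meis proteins. Progenitors held at this stage depend on cytokines such as GM-CSF, and the granulocyte lineage is known for filling its granules in order: primary granules with myeloperoxidase and serine proteases first, then secondary and tertiary granules with lactoferrin, cathelicidin and gelatinase.

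Primary granule genes were among the brightest lineage genes of these cells, so the stretch before the transcription start of 4 of them is shown. The build and strand are those of the RefSeq promoter table (GRCm38.p6). Capitals mark every match to the TATA box TATAAA, to GAGGAA, the core bound by the myeloid factor PU.1, and to the paired C/EBP sites TTNNGNAA, on either strand. The stretches are chr14:56102575-56102824 (minus strand) for Ctsg, chr11:87793534-87793783 (plus) for Mpo, chr10:79886062-79886311 (plus) for Elane and chr10:79879417-79879666 (plus) for Prtn3.
Ctsg: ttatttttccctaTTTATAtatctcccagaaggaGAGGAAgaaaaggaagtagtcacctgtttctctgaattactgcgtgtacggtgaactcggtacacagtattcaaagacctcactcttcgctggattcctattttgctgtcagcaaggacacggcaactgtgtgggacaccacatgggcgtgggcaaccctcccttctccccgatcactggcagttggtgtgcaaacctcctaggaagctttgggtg
Mpo: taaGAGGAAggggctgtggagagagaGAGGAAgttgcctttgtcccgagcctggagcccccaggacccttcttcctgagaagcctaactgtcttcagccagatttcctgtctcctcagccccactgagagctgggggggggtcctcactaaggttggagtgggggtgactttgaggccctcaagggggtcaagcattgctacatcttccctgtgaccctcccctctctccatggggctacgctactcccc
Elane: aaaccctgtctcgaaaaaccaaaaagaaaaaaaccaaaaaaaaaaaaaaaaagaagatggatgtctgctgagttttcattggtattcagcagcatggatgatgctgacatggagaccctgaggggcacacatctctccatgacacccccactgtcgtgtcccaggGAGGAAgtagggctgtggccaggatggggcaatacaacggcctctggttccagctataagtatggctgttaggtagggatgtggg
Prtn3: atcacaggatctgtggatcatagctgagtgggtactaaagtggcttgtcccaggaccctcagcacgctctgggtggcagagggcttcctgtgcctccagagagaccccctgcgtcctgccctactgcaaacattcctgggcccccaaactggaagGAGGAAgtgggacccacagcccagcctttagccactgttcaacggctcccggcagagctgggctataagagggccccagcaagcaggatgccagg
Each of the 4 stretches held GAGGAA, once in Ctsg, Elane and Prtn3 and at 2 places in Mpo. Ctsg alone of these 4 held the exact letters TATAAA, read from the other strand. Elane and Prtn3 held TATAAG toward the start, which differs in its last base and was not marked. The search took no account of where in a stretch a match lies, so it does not tell which genes have a working TATA box. None held TTNNGNAA. No marked match overlapped another. Over windows from 250 bases before to 50 after the start, 30 promoters of 28 granule genes above background (31 such genes in all) contained GAGGAA in 53.3% of cases. The share was 28.3% over all 32851 promoters of the table, 26.5% over those of genes above background and 27.6% over those of genes never above it. TATAAA was found in 30% of granule gene promoters, against 13.6% of all promoters and 6.94% of those above background, and TTNNGNAA in 56.7%, against 40.7% and 31.5%. Their median number of CpG dinucleotides was 4, against 21 in promoters of genes above background and 6 in those of genes never above it. Median GC content was 52.2% in granule gene promoters, 60.7% in promoters above background and 53.3% in those never above. A match describes letters in a window and was not tested as a binding site.

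Levels are given as mean foreground minus local median background in scanner units, averaged over the probes of a gene that were above background on all arrays, as mean ± SD (n = 3 channels). Probes that were never above background still read 33.4 units by this measure (median), so this floor is contained in every level. The brightness of a probe depends on its own sequence as well as on the transcript, so any order of levels between genes is one of signals and not of transcript numbers. Among 3826 genes with at least 2 probes above background, the brightest probe read 2.67 times the dimmest at the median, and at least 10 times in 515 genes (13.5%). The scanner called 41.5 to 42.2% of 41534 features above background, median foreground was 78.2 to 79.3 units and local background 41 to 42 units. Across the genes above background the level had a median of 158 units, a 5th percentile of 45.8 and a 95th percentile of 2528, from 36.2 units at the lowest to 48809 at the highest. In all, 2369 genes (21.5%) lay under 2 times the floor, 1371 (12.4%) reached 1000 units and 108 reached 10000 units. The brightest 100 of all genes above background, 21 of them without an established symbol, held 26.1% of the summed level.

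**Figure D1:**
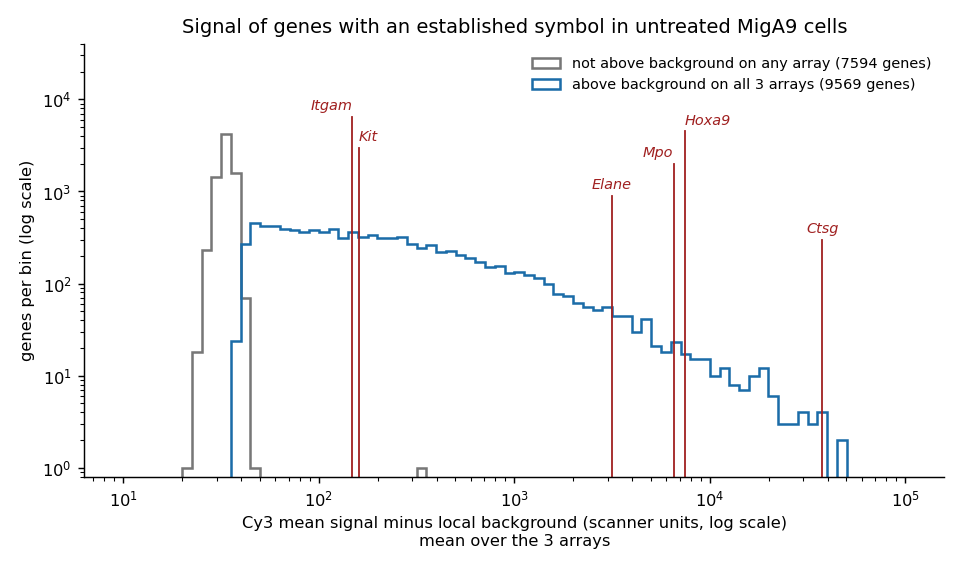
The number of genes per bin (log scale) is plotted against signal (scanner units, log scale, mean over the 3 arrays) for genes with an established symbol. The 7594 genes never above background pile up around the floor of 33.4 units, the 9569 genes above background stretch from there to 48809 units, and red lines place Kit and Itgam near the middle and Elane, Mpo, Hoxa9 and Ctsg in the upper tail.

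All 5 genes taken as markers of the line were above background in every channel. Mpo, the myeloperoxidase of primary granules, read 6439, 7159 and 5963 units (6520.1 ± 602), which placed it at the 98.3rd percentile of genes above background. Elane, the neutrophil elastase, read 3191, 3183 and 3062 units (3145 ± 72.1, 96.0th percentile). Hoxa9 itself read 6485, 7479 and 8441 units (7469 ± 978, 98.6th percentile). Kit, the receptor for stem cell factor, read 169, 160.2 and 152 units (160.5 ± 8.2, 50.5th percentile), and Itgam, the CD11b subunit of the myeloid integrin Mac-1, read 122, 146 and 176 units (148 ± 27.1, 48.1st percentile). Kit and Itgam thus sat at the middle of the genes above background, and the 3 Itgam values lay farthest apart relative to their mean: their coefficient of variation was 18.3%, against 13.1% for Hoxa9, 9.23% for Mpo, 5.11% for Kit and 2.29% for Elane. Both Itgam probes gave the same picture, at 125, 151 and 186 units and at 119, 142 and 166 units.

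Hoxa9 stood alone among the Hox genes. Of 38 Hox genes on the array, 6 were above background on all arrays (15.8%, against 52.4% of genes with an established symbol), 3 on some and 29 on none. Hoxd9, the paralog of Hoxa9 in the D cluster, was next at 186, 183 and 243 units (204 ± 33.9), by 1 of its 2 probes, with the other at 34.5 units. Hoxb6 (57.1 ± 3.55), Hoxb4 (44.8 ± 0.871) and Hoxc4 (43.6 ± 3.85) were within 2 times the floor. The 29 members not above background on any array averaged 28.7 to 39.4 units, around the 33.4 units of probes never above background. The genes that flank Hoxa9 in the A cluster were all in that class: Hoxa4, Hoxa5, Hoxa6, Hoxa7, Hoxa10, Hoxa11 and Hoxa13, together with Evx1 at the cluster's end, made 8 of 8 neighbours that were not above background on any array. For comparison, over 16698 neighbouring pairs of protein-coding genes on the array, 62.3% of the genes next to one above background were above it too. That share is for the gene directly next, whereas the 8 neighbours reach up to 4 genes away on each side. The Hox genes among these 8 are also counted in the 29 above. The array holds a single Hoxa9 probe, whose sequence was not used here, so signal from the transforming and from the endogenous Hoxa9 cannot be told apart.

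**Figure D2:**
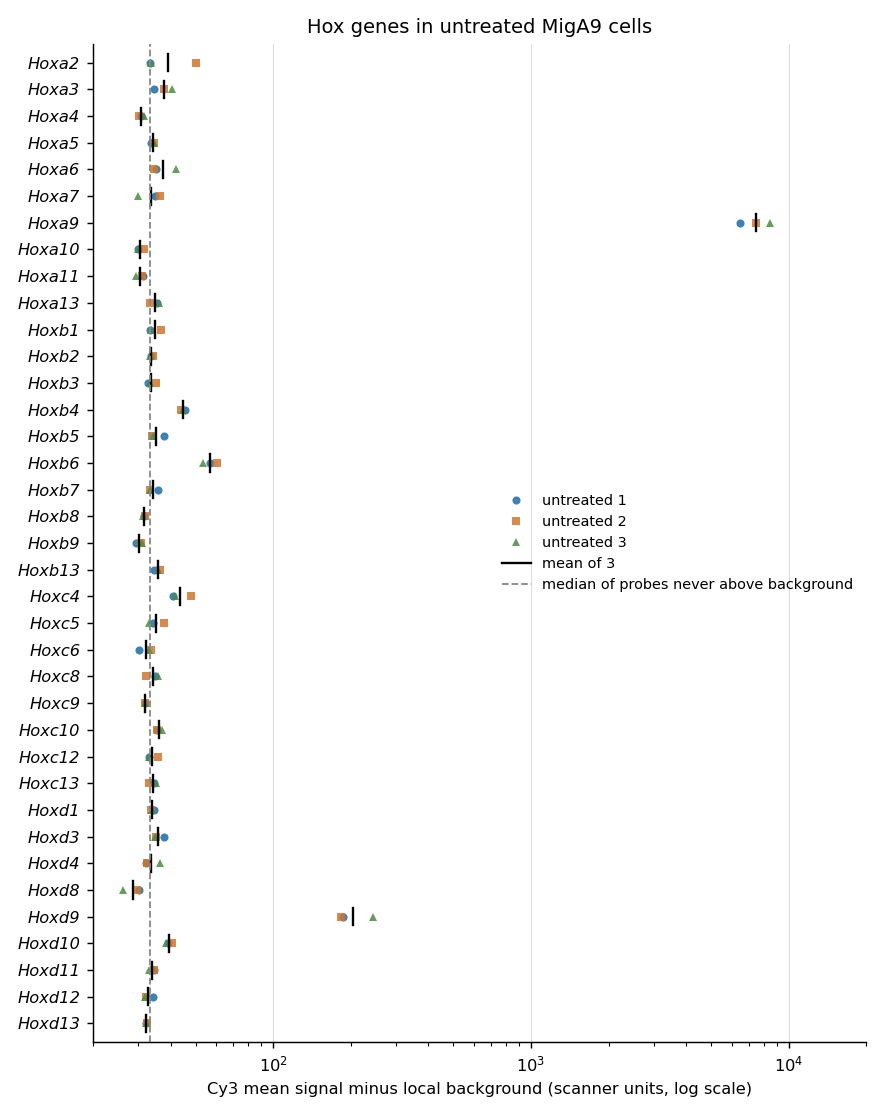
Signal of Hox genes on the array in each untreated channel (points; scanner units, log scale), with the mean of the 3 (bars) and the floor of probes never above background (dashed line). Hoxa9 has a mean of 7469 units, Hoxd9 of 204 units, and the others shown at or close to the floor of 33.4 units.

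The TALE cofactors gave dim signals. Of 11 on the array, 6 were above background on all arrays (54.5%). Pknox1 (176 ± 14.3), Pbx2 (151 ± 4.05) and Tgif2 (107 ± 3.60) were the brightest, followed by Pbx3 (80.6 ± 3.67, by 1 of 3 probes), Tgif1 (50.3 ± 4.30) and Pbx4 (42.1 ± 1.20). Meis1, a cofactor often co-expressed with Hoxa9 in myeloid leukemia, read 34.7, 35.9 and 34.1 units and was not above background on any array, by either of its 2 probes. Meis3 and Pknox2 were likewise at background, and Meis2 was above it on some.

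Of 17 transcription factors of myeloid development on the array, 15 were above background on all arrays (88.2%). The C/EBP factors, basic leucine zipper proteins that drive granulocyte genes, were led by Cebpd at 2330, 2289 and 2761 units (2460 ± 262) and Cebpb (2086 ± 97.1), with Cebpa at 219, 240.1 and 229.7 units (229.8 ± 10.3). Gfi1, the repressor that favours granulocytes, was at 1197 ± 92.1, and Irf8, the factor that favours monocytes, at 637, 716 and 662 units (671 ± 40.2). Myb (1188 ± 149) and Myc (692 ± 88.3), which sustain progenitor division, stood at the 89.5th and 83.2nd percentiles of genes above background. Klf4, a monocyte factor, was at 843 ± 177 units and differed most between channels in this group, with 640.1 units in untreated 1 against 922 and 966. Spi1, which encodes PU.1, gave 66.0, 73.2 and 67.9 units (69.0 ± 3.73), at the 22.7th percentile by its single probe. Runx1 was at 92.6 ± 2.10 and its partner Cbfb at 595 ± 74.9. Fos was not above background on any array, and Egr1 was on some.

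All 16 members of the primary granule list were above background on all arrays, against 52.4% of genes with an established symbol. Their median level of 3371 units compares with 158 units over all genes above background. The list also holds genes whose products are not granule contents, such as inhibitors and membrane proteins. Ctsg, the cathepsin G protease, read 35651, 38721 and 38421 units (37598 ± 1692) and ranked 4th of all genes with an established symbol. The small cysteine-rich protein Plac8 (19872 ± 1388), Srgn, the serglycin core that packs granule proteins (19122 ± 1343), the lysozyme Lyz2 (16028 ± 1906) and the membrane protein Ms4a3 (9876 ± 886) were next. Mpo and Elane followed at the values above, with Lyz1 (5336 ± 566) between them. The elastase inhibitor Serpinb1a was at 3596 ± 279, the cystatin Cst7 at 1650.5 ± 178, the protease Prss57 at 1263 ± 184, the protease Prtn3 at 1090, 1182 and 1070 units (1114 ± 59.5), and Ctsc, the peptidase that activates these proteases, at 522 ± 36.4. Fcnb, the ficolin of granulocyte progenitors, was near the floor at 53.8 ± 4.69 units. Lyz1 and Lyz2 are close copies, and the probe sequences were not used here, so the share each contributes to either signal was not tested.

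The granule genes lie in clusters with relatives that were not expressed alike. Elane lies beside Prtn3 (1114 units) and Cfd (61.8 ± 1.17), which encodes complement factor D, and 6 of its 8 nearest neighbours were above background. Ctsg lies among mast cell proteases and granzymes, of which Mcpt8 alone, at 119, 99 and 117 units (112 ± 11), was above background among 8 neighbours, while Mcpt2, Mcpt4, Mcpt9, Gzmd, Gzme, Gzmg and Gzmn were not on any array. Next to Mpo, the related peroxidases Lpo and Epx, the second being that of eosinophils, were not above background on any array.

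The members of the list for secondary and tertiary granules, which fill later in maturation, were above background in 15 of 17 cases (88.2%). Their median was 354 units. This list, too, holds genes whose products are not granule contents in the strict sense, among them S100a8, S100a9, Padi4 and Ltb4r1. The calcium-binding partners S100a9 and S100a8 gave 9680, 10677 and 9989 units (10115 ± 510) and 2023, 2158 and 2271 units (2151 ± 124), and lie next to each other in the genome. Chil3, a chitinase-like protein of granulocytes and macrophages, was at 3965 ± 392 and haptoglobin, Hp, at 2987 ± 382. Ltf, the lactoferrin that defines secondary granules, read 109, 141 and 139 units (129.9 ± 18.0). Camp, cathelicidin, read 192, 266 and 256 units (238 ± 40), the granule protein Ngp 279, 346 and 454 units (359 ± 88.3), and Lcn2, lipocalin 2, 78.3, 91.8 and 87.0 units (85.7 ± 6.85). The lowest of all 3 channels was untreated 1 for each of these 4 genes. Mmp8, the neutrophil collagenase, was at 354 ± 59.5, whereas Mmp9, the gelatinase of tertiary granules, and Retnlg were not above background on any array, at 35.4 and 34.1 units.

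Monocyte and macrophage genes were mixed, with 15 of 25 above background on all arrays (60.0%), 2 on some and 8 on none. F13a1, the coagulation factor XIII subunit of monocytes, read 4173, 5306 and 5423 units (4967 ± 691). Lgals3, galectin 3 (675 ± 78.6), the Fc receptor Fcgr3 (660.4 ± 87.2), the beta-glucan receptor Clec7a (501 ± 91.8), the chemokine receptor Ccr2 (336, 417 and 507 units, 420.1 ± 85.6), Spp1, osteopontin (258, 391 and 456 units, 368 ± 101), and Clec4d (339.7 ± 36.1) followed. Adgre1, the F4/80 antigen, was at 330.0 ± 61.9 by 1 of 2 probes, with the other at 37.2 units. Csf1r, the receptor for M-CSF, read 127, 144 and 171 units (147 ± 22.2). The 8 members above background on no array were Cx3cr1, Msr1, Marco, C1qa, C1qc, Cd163, Timd4 and Siglec1, at 32.1 to 38.6 units. Macrophage genes were not at background as a set. Besides Adgre1, Vcam1 (260.5 units, by 2 of 3 probes) and Cd68 (243.5 units) were above background on all arrays. So were Mrc1 (65.02 units) and C1qb (47.38 units), both within 2 times the floor. In bulk RNA, fewer cells of a type and less RNA per cell cannot be told apart.

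**Figure D3:**
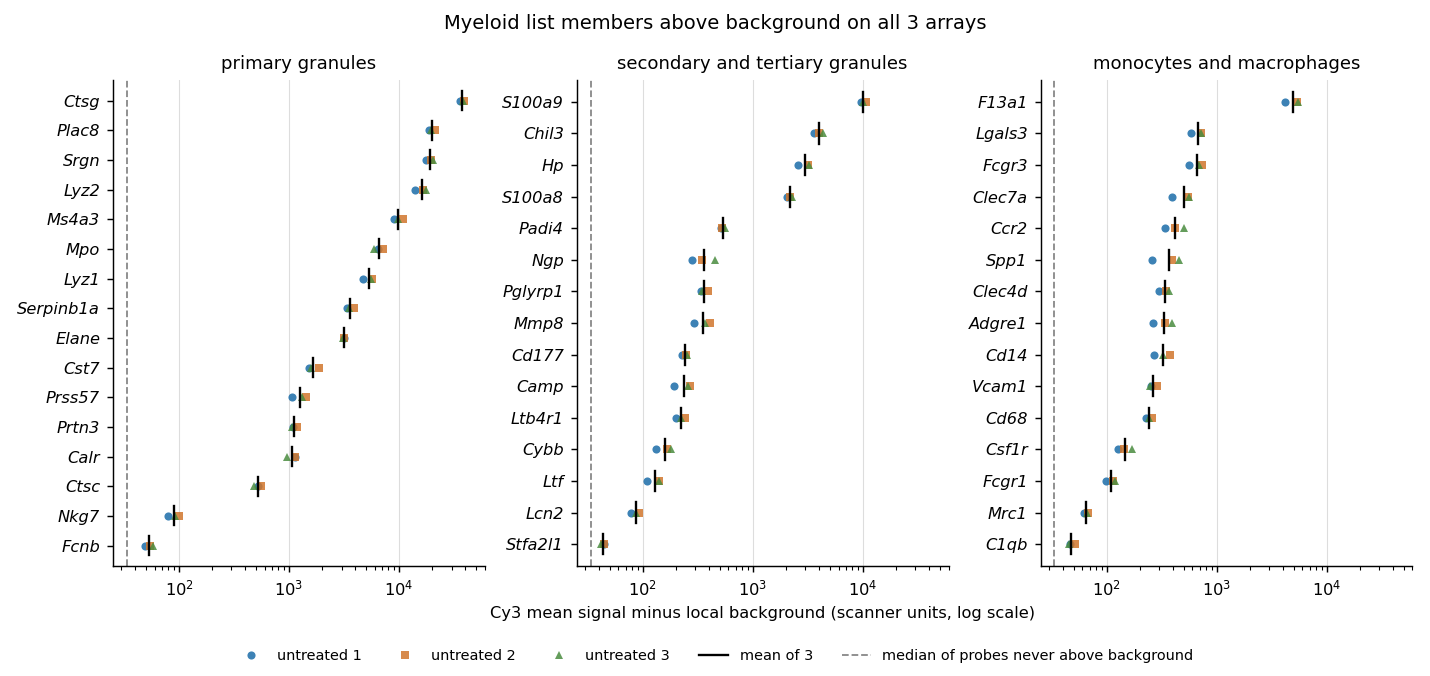
Levels of the myeloid list members above background on all arrays, as points for each untreated channel and bars for the mean of 3 (scanner units, log scale), with the dashed line at the floor of 33.4 units. Members of the primary granule list reach 37598 units (Ctsg), of the later granule list 10115 units (S100a9) and of the monocyte list 4967 units (F13a1).

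The cytokine receptors were above background in 21 of 24 cases (87.5%). Csf2ra, the ligand-binding chain of the receptor for GM-CSF, on which the medium rests, read 4345, 4657 and 4746 units (4583 ± 211, 97.5th percentile). Its signalling chains Csf2rb (756, 867 and 765 units, 796 ± 61.5) and Csf2rb2 (557 ± 51.3, by a single probe) were also above background. These 2 genes are close copies, and the share each contributes to either signal was not tested. Il3ra, which pairs with the same chains, was at 224 ± 15.4, and Csf3r, the receptor for G-CSF, at 127 ± 9.86. The brightest receptor of the list was Ifngr1, a chain of the receptor for interferon gamma (7190.4 ± 901), followed after Csf2ra by the tumor necrosis factor receptor Tnfrsf1a (1330.2 ± 92.6). Il10rb, a chain of the receptor for interleukin 10, was at 1113 ± 60.0 by 1 of 2 probes, with the other at 41.7 units and above background on 1 array. Il1r1, the receptor for interleukin 1, was not above background on any array. Downstream, 19 of 20 signalling genes were above background (95%), all but the adaptor Gab2. Cish, an inhibitor that cytokines induce through Stat5, had the highest signal of them at 1936, 1786 and 1851 units (1858 ± 75.6), ahead of the adaptor Grb2 (1447 ± 143), and the phosphatase Ptpn11 was at 825 ± 67.9. Stat5a was at 245 ± 19.5 and the inhibitor Socs3 at 605 ± 52.1. The levels of 3 others rest on a single probe that was above background, namely Stat3 (1051 ± 88.2, by 1 of 2 probes), Stat5b (416 ± 21.4, by 1 of 3) and Jak2 (134 ± 2.09, by 1 of 2). Averaged over all their probes, these 3 genes read 547, 163 and 85.0 units.

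On the cell surface, 16 of 18 integrins and adhesion molecules were above background (88.9%). Cd47 (1230.3 ± 74.5), the selectin ligand Selplg (992 ± 59.7), Itgb2, the partner chain of Itgam (618 ± 60.7), and Cd44 (398 ± 19.8) were among the brightest, and Itgae was not above background. Of 20 Fc receptors, lectins and other leukocyte surface genes, 19 were above background (95%), with the tetraspanin Cd63 at 4694 ± 317, the adaptors Tyrobp at 2932 ± 262 and Fcer1g at 1437 ± 138, the inhibitory receptor Pirb at 1626, 2157 and 2559 units (2114 ± 468) and the common leukocyte antigen Ptprc at 465 ± 55.1. The chemokine receptors went the other way. Of 20 on the array 3 were above background (15.0%), among them Ccr2 and Cxcr4 at 193, 188 and 192 units (191 ± 2.29). The other 17, among them the neutrophil receptors Cxcr2, Cxcr1, Fpr1, Fpr2 and C5ar1, read 26.4 to 38.1 units on average and were above background on no array. All 8 genes of the NADPH oxidase, the complex that makes superoxide in phagocytes, were above background, from its catalytic subunit Cybb at 132, 165 and 180.3 units (159 ± 24.8) to the cytosolic subunit Ncf4 at 3112 ± 219. Of 16 Toll-like receptor genes 12 were above background (75%), with the adaptor Myd88 at 793 ± 59.8, Tlr2 at 208 ± 25.3 and Tlr4 at 147 ± 10.1 by 1 of 2 probes, and Tlr3, Tlr5, Tlr8 and Ticam2 were on none.

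Markers of other blood lineages were mostly at background. Pooled over 8 lists, 22 of 129 genes were above background on all arrays (17.1%), 21 on some and 86 on none (66.7%), compared with 142 of 163 above for 9 pooled myeloid lists (87.1%). These 9 were the primary granule, later granule, monocyte and macrophage, myeloid transcription factor, NADPH oxidase, cytokine receptor, cytokine signalling, integrin and adhesion, and leukocyte surface lists. With the chemokine and Toll-like receptor lists added and the cytokine signalling list left out, a choice made after seeing the data, the myeloid count was 136 of 176 (77.3%). The share over genes with an established symbol was 52.4%. All of these lists were chosen with earlier results of these data known. The myeloid lists also hold genes that are not restricted to myeloid cells, such as Jak1 and Grb2. The gap between the pooled shares therefore depends on how the lists were built and is no measure of lineage. No eosinophil gene of 10 and no NK cell gene of 12 was above background on all arrays. Epx and Prg2, the major eosinophil granule proteins, averaged 33.6 and 33.5 units, and Gzma, Gzmb, Prf1 and Eomes of NK cells 31.9, 32.3, 31.9 and 32.7 units. Of 18 mast cell and basophil genes 4 were above, namely Kit, Mcpt8, Hdc, the histidine decarboxylase that makes histamine (85.4 ± 13.3), and Mitf (72.5 ± 4.5, by 1 of 2 probes). The mast cell proteases Cpa3, Tpsab1, Tpsb2, Mcpt1 and Mcpt4 and the IgE receptor genes Fcer1a and Ms4a2 were on none. Of 19 erythroid genes, the transferrin receptor Tfrc (251 ± 9.13), which dividing cells in general carry, and Car2 (76.5 ± 7.05) were above, while Gata1, Alas2 and Slc4a1 were on none. Of 15 megakaryocyte and platelet genes 5 were above, led by the transcription factor Fli1 (783 ± 70.3) and Thbs1 (276 ± 55.9). The others were Plek (145 ± 13.3), Itgb3 (113 ± 23.6) and, near the floor, Gp1bb (46.8 ± 2.18). Pf4 and Selp were above on some arrays, while Itga2b, Gp1ba, Gp9, Gp6, Ppbp and Vwf were on none. Of 17 dendritic cell genes 3 were above: Tcf4 (157 ± 14.4), the invariant chain Cd74 (102 ± 12.9) and H2-Ab1 (44.2 ± 3.23). Flt3, Zbtb46, Xcr1, Clec9a, Batf3 and Siglech were on none.

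Lymphoid genes held a few clear signals among many at background. Ighm, the constant region of immunoglobulin mu, gave 2263, 2802 and 2474 units by its brightest probe, 1589, 2028 and 2322 by another, 448, 494 and 517 by the third, and 32.2 to 34.0 by the fourth, which was above background on no array. Blnk, an adaptor of B cells that macrophages also use, was at 178, 235 and 268 units (227 ± 45.3), and Vpreb1 near the floor (56.9 ± 4.41). These were the 3 of 19 B cell genes above background, and Cd79a, Cd79b, Ebf1, Ms4a1, Igll1, Rag1 and Rag2 were on none. Of 20 T cell genes 5 were above. Thy1 read 833, 1086 and 1121 units by 1 probe and 60.3, 53.5 and 61.6 by the other. Cd8b1 read 217, 222 and 194 units by 1 probe and was at background by the other, and Lck, Cd28 and Lat were below 2 times the floor. Cd3d, Cd3e, Cd3g, Cd8a, Cd2, Cd5, Zap70 and Tcf7 were on none, at 29.1 to 35.9 units. The number of lymphoid cells in the culture was not measured, and the part of such cells in these signals was not tested.

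Genes of stem cells and early progenitors were above background in 8 of 21 cases (38.1%). Thy1, Cd48 (343 ± 24.0), Ly6a, the Sca-1 antigen, at 266, 269.9 and 265 units (267 ± 2.81), Kit, Egfl7 (159 ± 11.6), Tal1 (76.3 ± 4.19), Prom1 (59.6 ± 3.78) and Hlf (49.1 ± 1.98) were those above. Cd34 read 32.9, 34.2 and 30.7 units and Flt3 35.9, 35.2 and 42.7 units, and neither was above background on any array. The stem cell factors Gata2, Mecom and Erg, the receptor Tek, and the surface antigens Procr, Slamf1, Cd27 and Eng were in the same class, as was Meis1.

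Genes of other tissues were read in the same way, on lists chosen with earlier results of these data known, so they are no check on the label. Pooled over 5 lists, 10 of 77 were above background on all arrays (13%) and 57 on none, against 52.4% and 41.6% of genes with an established symbol. The counts were 3 of 16 for fibroblasts and stroma, 2 of 13 for endothelium, 3 of 16 for neurons and glia and 2 of 19 for liver, muscle and germ line. Of 13 epithelial genes, 0 were above on all arrays. Acta2, smooth muscle actin, was the brightest exception at 1306, 1477 and 1238 units by 1 of 5 probes, with a second at 177, 236 and 225 units and 3 others near the floor. Mbp, known from myelin, read 418, 515 and 564 units by 1 of 3 probes, and Afp, alpha-fetoprotein of fetal liver, 223, 246 and 208 units by its single probe. Collagens Col1a1 and Col3a1, the endothelial receptors Kdr and Cdh5, the neuronal genes Map2 and Snap25, and Alb were on none.

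**Figure D4:**
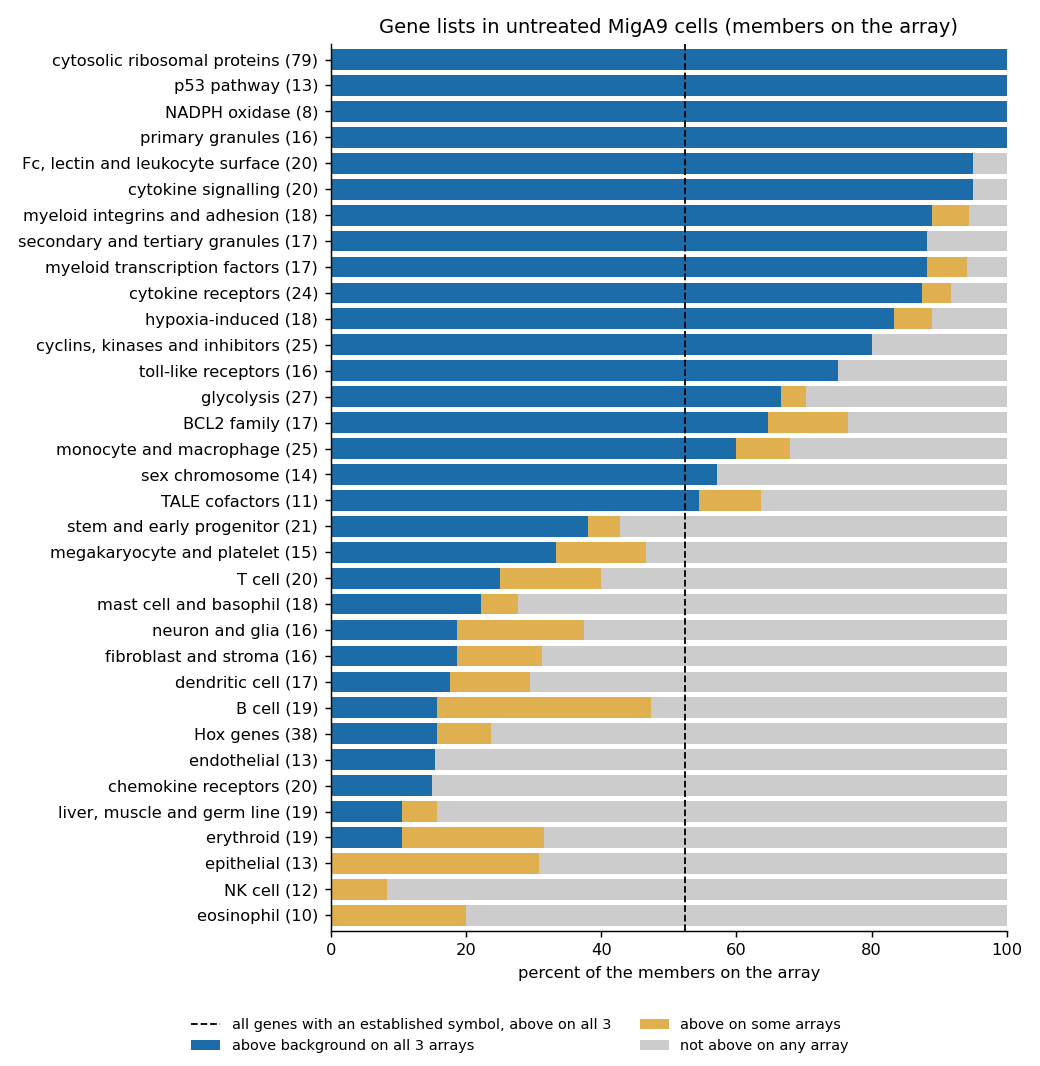
Percent of the members on the array (number in parentheses) that were above background on all 3 arrays, on some, or on none, for each of 34 gene lists. The dashed line marks the 52.4% of all genes with an established symbol, with the primary granule, NADPH oxidase, p53 and ribosomal lists at 100% and the eosinophil, NK cell and epithelial lists at 0.

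Genes of division and survival were widely present. Of 25 cyclins, kinases and inhibitors, 20 were above background (80.0%), with the replication clamp Pcna at 4324, 5096 and 4541 units (4653 ± 398), Mki67 at 2005 ± 79.3, cyclin B2, Ccnb2, at 1859 ± 218, and Ccna2 at 1267 ± 72.5. Of the D cyclins, Ccnd2 (584, 634 and 509 units, 576 ± 62.8) and Ccnd3 (804, 837 and 750.4 units, 797 ± 43.5) were above background, Ccnd1 was on none, and their partner Cdk6 was at 1004 ± 13.4. The inhibitors divided as well: Cdkn2d was at 1039 ± 51.5 and Cdkn2c at 143 ± 4.73, whereas Cdkn2a, Cdkn2b and Cdkn1c were above background on no array, Cdkn2a at 30.6, 32.4 and 12.6 units. All 13 genes of the p53 pathway were above background, with Trp53 at 117 ± 7.33, Mdm2 at 96.0 ± 16.7 and Cdkn1a at 126, 106 and 89.4 units (107 ± 18.3). Of 17 BCL2 family genes 11 were above (64.7%), led by the effector Bax (844 ± 23.0), the survival protein Mcl1 (648 ± 52.7), Bcl2a1b (592 ± 38.4) and Pmaip1 (571 ± 129.6), with Bcl2 itself at 120.4, 126 and 123 units (123 ± 3.02).

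Ribosomal proteins, the structural parts of the translation machinery, were the most numerous group among the brightest genes. They made up 19 of the 30 brightest genes with an established symbol and 44 of the brightest 100, and all 79 on the array were above background with a median of 11066 units. Among the 30 were Rplp1 (37621 ± 3650), Rps23, Rpl37a, Rps12, Fau, Rplp2, Rps18, Rps16, Rps2, Rps14, Rpl41, Rpl38, Rpl27, Rpl5, Rpl8, Rps7, Rpl12, Rps29 and Rps27. The others were Ctsg and Plac8 of the primary granule list, the core histones H2ac1 (30381 ± 3585), H2ac20 and H2ac10, the glycolytic aldolase Aldoa at 25608, 25390 and 26079 units (25692 ± 352), the respiratory chain subunits COX2 (22926 ± 426) and Cox6a1 (22655 ± 526), the actin regulator Arpc1b at 16503, 24902 and 22374 units (21260 ± 4309), Ptprz1 and Lars2. Neighbours in this order were mostly not separable: the 3 values overlapped in 26 of 29 neighbouring pairs. Each channel alone gave 95, 97 and 97 of the same 100 genes. Glycolysis genes placed 2 in the 100, Aldoa and the isomerase Gpi1 (17294, 17330 and 17234 units, by 1 of 2 probes), and 18 of 27 were above background (66.7%), including Pgam1 (8134 ± 352), Ldha (6782 ± 404) and Pgk1 (6134 ± 180.0).

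**Figure D5:**
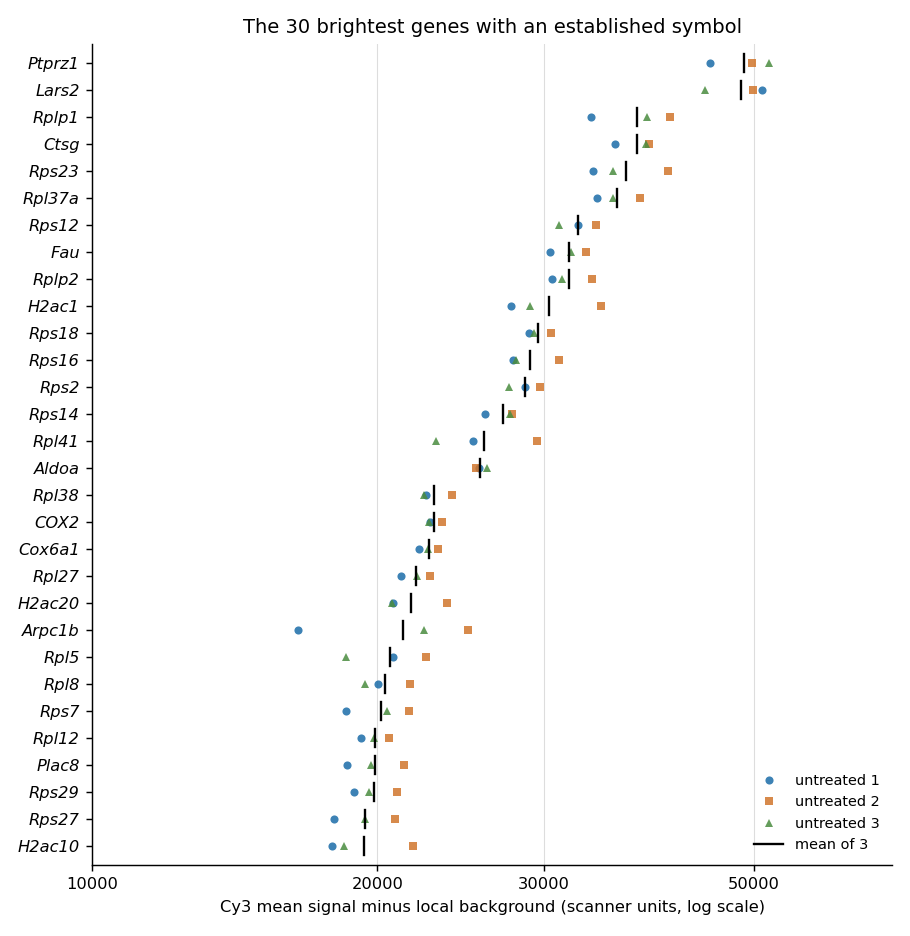
The 30 genes with an established symbol and the highest mean level, with 1 point per untreated channel and a bar at the mean of 3 (scanner units, log scale). Points of neighbouring genes overlap over most of the range, from Ptprz1 at 48809 units to H2ac10 at 19378 units.

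The brightest genes included some whose probes disagreed. Ptprz1, a receptor phosphatase best known from glia, headed the order by 1 of its 4 probes, at 44921, 49700 and 51805 units, while its other 3 averaged 27.5 to 36.0 units and were above background on no array. Lars2, the mitochondrial leucyl-tRNA synthetase, had a single probe, at 50949, 49875 and 44415 units. Pigt, a subunit of the GPI transamidase, read 38323, 43295 and 34278 units by 1 probe and 48.8, 43.2 and 59.9 by the other. In the brightest 100, 63 genes had a single probe, and for 11 some probe was not above background.

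The 3 untreated channels lay close together. The median coefficient of variation over genes above background was 5.75%, its 90th percentile 11.2%, and 168 genes (1.52%) exceeded 20%. In 27 genes the highest channel was at least 2 times the lowest. Signals in untreated 2 were on the whole the highest, by a median ratio of 1.06 to untreated 1, and no scaling between arrays was applied. Of genes above background, untreated 1 was the highest of the 3 in 18.1% and the lowest in 48.7%.

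Against that background the genes induced by low oxygen differed in a shared direction. Of 15 above background among 18 on the array, 14 were highest in untreated 1. The median ratio of the 15 in that channel to the mean of the others was 1.13, against 0.967 over all genes above background. The list was chosen with earlier results of these data known, so the count is no independent check. Ankrd37 read 270.0, 65.6 and 73.3 units, Ddit4, an inhibitor of mTOR signalling, 990.2, 257 and 276 units, Bnip3, a mitophagy receptor, 752, 274 and 369.7 units, and Egln3, an oxygen-sensing hydroxylase, 298, 165 and 183 units. In each the values of untreated 2 and 3 lay nearer to each other than to the higher value of untreated 1. Vegfa (320.2, 286 and 295 units) and Hif1a (197, 187 and 187 units) differed less. Of the 18 glycolysis genes above background, 8 were highest in untreated 1 and 2 lowest, with a median ratio of 1.04. Among these, the glucose carrier Slc2a1 read 1368, 817 and 934 units and the phosphofructokinase Pfkl, chosen after its values were seen, 462, 319 and 317 units. The opposite order held for many genes of the myeloid lists, but not for these alone. Untreated 1 was the lowest channel for 14 of 15 members of the later granule list, 13 of 15 monocyte genes, 16 of 19 leukocyte surface genes and 11 of 16 primary granule genes above background, beside 48.7% of all genes. The same channel was lowest for 5 of 5 megakaryocyte and platelet genes, 3 of 3 dendritic cell genes and 46 of 79 ribosomal protein genes, but for 2 of 8 stem and early progenitor genes. The untreated channel is the reference of the ratio on each array, and these are differences between single channels whose source was not tested.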

How the data were processed

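The scanner files were deposited by the authors as Agilent Feature Extraction 9.1.3.1 output, and hold foreground and local background intensity per spot, with a call of well above background, per the file headers. The sources used here name no genome build. Only the Cy3 columns entered. Control spots were left out. A gene's level on an array is the mean of mean foreground minus median background intensity over its probes called on all 3 arrays, with no scaling, computed in Python 3.11.15 with pandas 2.3.3 and numpy 2.4.6 (normexp in limma 3.58.1, R 4.3.3). Probes were named through RefSeq by accession (22864), symbol (6732) or synonym (3498), and 8080 kept the file's name. Members and the 34 lists were chosen with earlier results of these data known. Named genes were the 30 brightest with an established symbol, up to 8 members of each list, lineage genes at background, the markers, cluster neighbours and the most variable members. Other list members named for their role, and Pigt, Pfkl, Csn2, Cpb2 and Gkn3, were chosen after their values were seen. On simulated arrays with 2000 genes, whose calls were given as input, the class came back for 2000, and 667 of 668 levels within 10%. This run checked the bookkeeping only. The scanner's call, the floor within a level and disagreement between called probes were not simulated. Alternatives covered the signal column, background correction, scaling, choice of probe, the call, outlier spots and each array. A few genes of the lists are counted but not reported by name here.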

Additional observations from a re-analysis of the deposited data

How the results depend on the processing

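No paired analysis was possible because the untreated channels form a single group. The count of genes above background (11043) ran from 8674, where a level of at least 2 times the floor was also required (an alternative chosen after seeing the data), to 12922 with the scanner's weaker call of positive and significant. With that call 9829 genes were above background on no array, against 14669. Calls of other lineages depended on the call: with above background on at least 1 array the pooled counts of other blood lineages and other tissues rose from 22 to 43 and from 10 to 20, and with the positive and significant call to 44 and 20, while the myeloid count moved from 142 to 147 and 146. Leaving out each array gave 11184 to 11234 genes above background and 14980 to 15192 never above it, and pooled lineage counts of 142, 23 and 10. Of the brightest 100 genes, 83 remained when the brightest probe of a gene stood for it, and at least 97 in every other setting run. The median coefficient of variation was 4.51 to 7.93% over all settings. The scanner's processed signal, which draws on the treated channel for its dye normalisation, gave 7.60%. Percentiles of named genes moved by at most 0.933 points with another signal column by up to 8.54 points (Bcl2) with the brightest probe and by up to 12.4 points (Spi1) with another call. Over single and pooled lists, 22 counts moved by over 1.5 times and 201 did not. Levels under about 2 times the floor, 2369 genes, are near the limit of what the signal can separate from background.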

Other observations

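Csn2, beta casein of milk, was chosen after its values were seen. It read 15996, 15997 and 14426 units in the 3 untreated channels (15473 ± 907) and ranked 48th among genes with an established symbol. Its neighbour Csn1s2a was at 307, 280 and 295 units (294 ± 14.0), Csn1s1 was above background on 1 array, and Csn1s2b, Prr27 and Odam were above it on none. Both Csn2 and Csn1s2a rest on a single probe.

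Of 14 genes of the sex chromosomes, 8 were above background on all arrays (57.1%) and 6 on none, and 3 of the Y chromosome were among the 8: Eif2s3y at 277, 283 and 279 units (279.7 ± 3.02), Ddx3y at 131, 132 and 117 units and Kdm5d at 54.5, 57.6 and 55.7 units. Uty, Usp9y, Sry, Zfy1, Zfy2 and the X-inactivation transcript Xist were above background on none.

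Some of the widest differences between channels came from 1 spot, and these genes were named after their values were seen. A probe of Klhl5 read 226, 247 and 22820 units, 1 of St7 83.0, 6963 and 85.3 units, 1 of Rfx7 2439, 107 and 100.3 units and 1 of Ptpn1 604, 640.1 and 18186 units, and the scanner marked the spot as an outlier on the array with the high value in each case. For Atp2a2 a probe read 61.0, 110 and 34157 units with no such mark, beside other probes at 71.9 to 82.0 units and 1 at background. The single saturated spot, for Gkn3 in untreated 3, stood at 65299 units against 42.9 and 41.1 in the other channels. For Cpb2 the mean over its probes was 903, 35.4 and 33.7 units, with no probe called above background on any array. Bmf, a BCL2 family member, read 343, 103 and 110 units with an outlier mark in untreated 1. Ccl3, a chemokine with a single probe, read 103, 304 and 393 units with no mark.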
